A study of Mus musculus with 6 samples.

Results

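The collagen chains are the protein subunits of the collagens, and their genes were followed here through TGF-β treatment and withdrawal of NMuMG, a line of immortalised epithelial cells that was derived from healthy murine mammary tissue. A gene was taken when its symbol was Col, a number, the letter a and a number, and when an array probe set named that gene alone. The rule found 42 genes among the 18193 genes measured, and each was read from the probe set that was brightest over all 6 arrays. A further 2 genes searched for, Col6a6 and Col28a1, had no probe set of 1 symbol. The 42 genes were 11 fibrillar chains, 9 chains of basement membranes and their anchoring, 5 type VI chains, 9 fibril-associated chains known as FACIT, and 8 others.

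Expression was compared between 3 groups of 2 arrays, one group of cells given the cytokine TGF-β at 4 ng/ml over 11 days, another given the same and then kept without it for 13 days, and control cells given vehicle. All cells grew in the same medium with serum and insulin, and the labels name no altered gene. Nothing in the labels shows that the paired arrays of a condition are from separate cultures, so p-values cover the spread between these samples and no more, and that spread may be technical. Withdrawn cells had also been in culture 13 days longer than cells harvested at the end of treatment, and time and withdrawal cannot be told apart. In their description entries the labels give the mesenchymal state to withdrawal arrays and the reverted epithelial state to TGF-β arrays, the opposite of the treatments, and the groups here follow the titles and treatment entries.

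Collagen molecules are helices of chains wound around each other, each chain a long run of repeats rich in glycine and proline. In the endoplasmic reticulum the chains are hydroxylated, bound by a dedicated chaperone and folded, and fibrillar procollagens are later trimmed of their propeptides and crosslinked by lysyl oxidases. Types I, III and V form the fibres of connective tissue, type IV the sheet under epithelia, type VII the fibrils that anchor that sheet, type VI beaded filaments around cells, and FACIT collagens sit on the surface of fibrils. TGF-β is known as an inducer of fibrillar collagen genes in fibroblasts, and mammary epithelium lies on a basement membrane that contains type IV collagen.

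The stretch of 250 bases before the annotated start is shown for 5 chains whose levels took different courses, so that the sequence can be set beside the values given further on. Col1a2 and Col7a1 were higher under TGF-β and lower after withdrawal, Col8a1 was higher at both steps, and Col6a1 and Col6a2 were lower under TGF-β and higher after withdrawal. Capitals mark, on either strand, CCAAT (the CCAAT box), GGGCGG (the GC box of Sp1), CAGAC (a SMAD box) and TGANTCA (an AP-1 site). The sequences are from RefSeq, assembly GRCm38.p6, and each is written 5′ to 3′ on the strand of its gene.
Col1a2, chr6:4505368-4505617, plus strand: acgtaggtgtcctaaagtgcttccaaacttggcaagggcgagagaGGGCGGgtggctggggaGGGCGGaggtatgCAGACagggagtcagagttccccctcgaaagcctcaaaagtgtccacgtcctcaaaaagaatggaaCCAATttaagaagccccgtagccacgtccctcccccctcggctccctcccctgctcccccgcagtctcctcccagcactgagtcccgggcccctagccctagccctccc
Col7a1, chr9:108953336-108953585, plus strand: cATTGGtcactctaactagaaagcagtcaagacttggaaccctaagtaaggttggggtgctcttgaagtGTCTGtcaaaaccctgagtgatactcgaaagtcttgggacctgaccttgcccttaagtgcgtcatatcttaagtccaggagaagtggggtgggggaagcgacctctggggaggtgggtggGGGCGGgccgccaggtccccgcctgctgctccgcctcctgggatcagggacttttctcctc
Col8a1, chr16:57754738-57754987, minus strand: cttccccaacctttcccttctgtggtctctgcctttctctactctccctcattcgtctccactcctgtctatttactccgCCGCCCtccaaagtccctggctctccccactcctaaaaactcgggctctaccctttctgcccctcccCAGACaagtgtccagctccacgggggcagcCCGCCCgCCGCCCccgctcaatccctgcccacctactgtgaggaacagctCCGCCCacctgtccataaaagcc
Col6a1, chr10:76726045-76726294, minus strand: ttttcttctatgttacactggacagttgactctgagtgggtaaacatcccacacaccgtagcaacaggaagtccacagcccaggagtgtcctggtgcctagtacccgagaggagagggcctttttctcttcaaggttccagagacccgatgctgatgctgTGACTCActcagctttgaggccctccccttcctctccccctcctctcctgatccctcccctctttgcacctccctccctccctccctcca
Col6a2, chr10:76623631-76623880, minus strand: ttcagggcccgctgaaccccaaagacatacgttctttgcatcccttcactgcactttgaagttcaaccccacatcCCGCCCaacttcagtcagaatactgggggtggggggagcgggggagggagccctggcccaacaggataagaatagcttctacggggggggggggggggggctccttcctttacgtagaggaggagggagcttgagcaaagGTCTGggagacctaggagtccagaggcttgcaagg

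These 5 stretches lie upstream of their genes and overlap no annotated gene. In Col1a2 the CCAAT box ended 105 bases before the start, with GC boxes at 200 and 183 and a SMAD box at 171. Col7a1 had a CCAAT box at 245, a SMAD box at 177 and a GC box at 56 bases before the start. Col8a1 carried 4 GC boxes, at 165, 68, 61 and 18, and a SMAD box at 99. Col6a1 held an AP-1 match at 84 and no other marked motif, while Col6a2 held a GC box at 170 and a SMAD box at 31. Of the 42 chains, 33 matched a RefSeq promoter entry. Within the same window 20 of 33 (60.6%) held a GC box, against 42.7% of 17492 protein-coding promoters, and the median GC content was 59.2%, against 55.2%. A SMAD box was in 13 of 33 (39.4%, against 41.0%), a CCAAT box in 12 (36.4%, against 36.5%), and an AP-1 match in 1 (3.0%, against 6.2%). These are counts of letters in a window and not sites of binding.

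Array medians of log2 expression lay between 5.77 and 5.79, Pearson's r between the 2 arrays of each group was 0.998 (across probe sets, which are not replicates), and no array stood apart. The treatment was checked on Tagln, a smooth muscle gene that answers TGF-β, which differed by 5.75 on the log2 scale between TGF-β and control and by -0.01 between withdrawal and control. Acta2, another smooth muscle gene, differed by 4.81 and -0.67 in the same comparisons, so it ended below control. The epithelial cadherin gene Cdh1 differed by -3.63 and -0.14 in the same comparisons. Summed levels of 7 epithelial markers were 14.73 to 14.75 on TGF-β arrays, 14.97 to 14.99 on withdrawal arrays and 15.66 to 15.67 on control arrays (log2). The sums are of linear values, in which the bright Krt8 and Krt18 weigh most. For withdrawal against TGF-β, Cdh1 and Krt19 differed by 3.49 and 2.93, and Krt8 and Epcam by -0.22 and -0.27. Krt18, Cldn3 and Cldn7 did not pass there. Summed levels of 6 fibroblast markers (Pdgfra, Dpt, Dcn, Lum, Thy1 and Fap) were 7.57 to 7.59 on TGF-β arrays, 7.52 to 7.59 on withdrawal arrays and 7.55 to 7.57 on control arrays, 0 of 6 passed limma's test in any comparison, and no single value exceeded 6.52. Cd68 was the only one of 5 leukocyte markers to pass, higher by 1.05 for withdrawal against TGF-β and by 0.89 against control, Cdh5 the only one of 4 endothelial markers, at -0.26 under TGF-β, and 0 of 3 adipocyte markers passed. The actin 3′ probe set exceeded the 5′ one by 0.36 and 0.34 on withdrawal arrays, 0.14 on each TGF-β array and 0.18 and 0.17 on control arrays, and 18S signal averaged 12.91 and 12.90 on withdrawal arrays, 12.06 and 12.11 on TGF-β arrays and 12.01 and 11.87 on control arrays. The part of these shifts in the collagen differences was not tested. In bulk RNA, fewer cells making a transcript and less of it per cell cannot be told apart.

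Under TGF-β more chains rose than fell. In limma's test, with p-values adjusted over all genes and a threshold of 0.05, 16 of 42 chains rose, 2 fell and 24 did not pass, while 15.0% of all genes rose, 17.5% fell and 32.4% passed in either direction. The 10 chains past a log2 difference of 1 were all higher, and the median over the 42 was 0.12, with a range of -0.47 to 3.83, against -0.01 over all genes. The increases were in the fibrillar class, 6 of 11 with a median of 0.57, and in the basement membrane class, 6 of 9 with a median of 0.71. FACIT had 2 increases of 9 with a median of 0.05, the other chains 1 of 8 with a median of 0.09, and type VI had 1 increase and 2 decreases of 5 with a median of -0.09.

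Withdrawal against TGF-β gave 4 increases and 17 decreases among the 42 chains, with 21 not passing, while 21.8% of all genes rose, 22.1% fell and 43.9% passed in either direction. The split of 4 to 17 was 4 to 10 under poly-A spike scaling and 4 to 28 under hybridization spike scaling. The median over the chains was -0.16, with a range of -3.64 to 1.84, against -0.03 over all genes. No fibrillar or basement membrane chain rose, while 8 of 11 fell with a median of -0.58 in the fibrillar class and 6 of 9 fell with a median of -0.41 in the basement membrane class (3 of 9 with a median of -0.27 under poly-A spike scaling). The 4 increases were Col6a1 and Col6a2 of type VI, Col12a1 of the FACIT class and the short chain Col8a1. The comparison shares the TGF-β arrays with the one before it, so the values of the members are given side by side and are not independent.

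After withdrawal 11 chains were higher than in control, 2 were lower and 29 did not pass, while 21.7% of all genes were higher, 23.6% were lower and 45.3% passed in either direction. The split of 11 to 2 became 9 to 28 when arrays were scaled to their hybridization spikes, which moved the median of all genes to -0.42. The chains' median was 0.01, with a range of -1.27 to 3.55, against -0.04 over all genes. The 11 were Col1a1, Col1a2, Col3a1, Col5a1, Col4a1, Col4a2, Col18a1, Col6a1, Col6a2, Col12a1 and Col8a1, and the 2 were Col27a1 and Col6a3. All the differences below are relative to the common level that normalisation gives the arrays. Arrays of the groups compared did not overlap for 64.9% of all genes for TGF-β against control. That share was 69% for withdrawal against TGF-β and 70.5% for withdrawal against control, so separate groups, as described below, are common here.

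**Figure D1:**
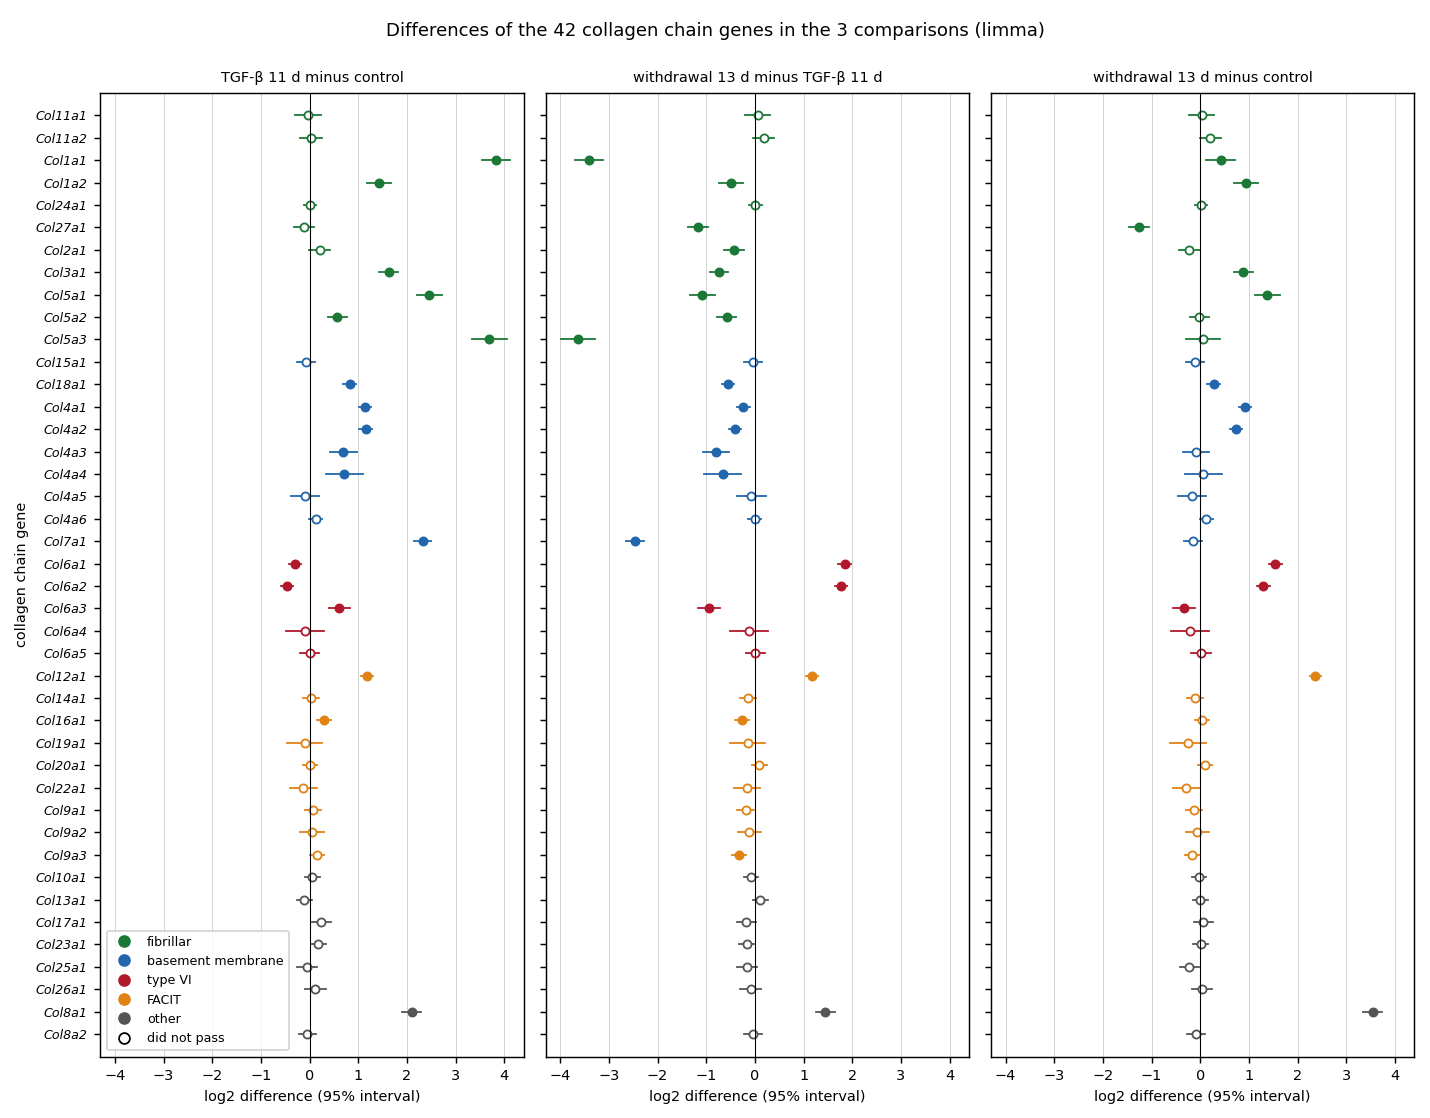
Log2 differences of the 42 chains, by class, in the 3 comparisons (dot, limma estimate; bar, 95% interval; open dot, adjusted p of 0.05 or more). Fibrillar and basement membrane dots lie right of 0 under TGF-β and left of 0 for withdrawal against TGF-β, apart from chains near 0, while Col6a1, Col6a2, Col12a1 and Col8a1 lie right of 0 in the middle panel.

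Type I collagen, the main fibril former of connective tissue, is built from the α1 and α2 chains. Col1a1, the α1 chain, stood at 9.57 and 9.83 on the TGF-β arrays, 6.43 and 6.16 on the withdrawal arrays and 5.85 and 5.89 on the control arrays (log2 expression). The groups did not overlap, and the withdrawal arrays lay close above control. Both control arrays lay below 6.08, the level under which the dimmest 40% of genes lie, so the size of the increase is uncertain. The difference was 3.83 ± 0.12 (SE), or 14.2-fold, for TGF-β against control (adjusted p = 8.4e-06, limma), -3.41 for withdrawal against TGF-β (adjusted p = 1.06e-05) and 0.42 for withdrawal against control (adjusted p = 0.0317). That last call was lost without either control array (adjusted p = 0.121 and 0.1), without the first withdrawal array (0.131), with the mean of probe sets (0.153), under both spike scalings (0.203 and 0.787) and with the replicate number as a block (0.0586). Col1a2, the α2 chain, stood at 8.01 and 7.96 on the TGF-β arrays, 7.49 and 7.51 on the withdrawal arrays and 6.72 and 6.42 on the control arrays. Its withdrawal arrays lay between the other groups without overlap. The difference of Col1a2 was 1.42 ± 0.1 (SE) under TGF-β (2.67-fold, adjusted p = 0.000172), -0.49 for withdrawal against TGF-β (adjusted p = 0.00935) and 0.93 for withdrawal against control (1.91-fold, adjusted p = 0.000548). The call for withdrawal against TGF-β was lost under poly-A spike scaling (-0.35, adjusted p = 0.117). A dimmer probe set of Col1a2 averaged 6.22 on TGF-β arrays, 5.33 on withdrawal arrays and 4.75 on control arrays, with differences of 1.47, -0.88 and 0.59 that all passed, so withdrawal lay nearer to TGF-β in the set used and nearer to control in this one. The difference between the chains in their course was not tested.

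Col3a1, the chain of type III collagen that is found with type I in pliable tissue, stood at 6.24 and 6.05 on the TGF-β arrays, 5.38 and 5.43 on the withdrawal arrays and 4.48 and 4.55 on the control arrays. The groups formed 3 separate steps at a low level, below the point under which the dimmest 40% of genes lie (6.08) in withdrawal and control. Col3a1 rose by 1.62 ± 0.078 (SE, 3.08-fold, adjusted p = 3.9e-05) under TGF-β, fell by 0.74 (1.67-fold, adjusted p = 0.00055) on withdrawal and stayed 0.89 above control (1.85-fold, adjusted p = 0.00023). Its other probe set gave 0.57, -0.44 and 0.13 in the same comparisons, and with that one in its place the calls of withdrawal against TGF-β and against control were lost (adjusted p = 0.0768 and 0.592).

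Type V chains nucleate fibrils of type I collagen. Col5a1, the α1 chain, stood at 10.21 and 10.26 on the TGF-β arrays, 9.15 and 9.16 on the withdrawal arrays and 7.62 and 7.93 on the control arrays. The groups again lay in 3 separate steps, with withdrawal in the middle. Col5a1 rose by 2.46 ± 0.1 (SE, 5.51-fold, adjusted p = 2.36e-05), fell by 1.08 on withdrawal (2.11-fold, adjusted p = 0.000362) and remained 1.38 above control (2.61-fold, adjusted p = 0.000119). Col5a3, the α3 chain, stood at 9.59 and 9.75 on the TGF-β arrays, 6.09 and 5.97 on the withdrawal arrays and 5.76 and 6.18 on the control arrays. Here withdrawal and control arrays overlapped, and both TGF-β arrays were far above. The withdrawal and control means of 6.03 and 5.97 lay below the limit of the dimmest 40% of genes (6.08). They may be background, so the size of both steps and the match to control are uncertain. Col5a3 rose by 3.69 ± 0.14 (SE, 12.9-fold, adjusted p = 1.85e-05), fell by 3.64 on withdrawal (12.4-fold, adjusted p = 1.49e-05) and differed from control by 0.06 after it (95% interval -0.30 to 0.41, adjusted p = 0.789). A dimmer probe set of Col5a3, at a mean of 3.76, gave 0.37, -0.53 and -0.16. Col5a2, the α2 chain, followed at a lower level, with 5.51 and 5.63 on TGF-β arrays, 5.07 and 4.90 on withdrawal arrays and 5.03 and 4.97 on control arrays. It rose by 0.57 ± 0.08 (SE, adjusted p = 0.00283), fell by 0.58 on withdrawal (adjusted p = 0.00161) and differed by -0.02 from control (95% interval -0.21 to 0.18), and the increase under TGF-β did not pass under poly-A spike scaling (0.28, adjusted p = 0.16). The other, dimmer probe set of Col5a2 gave -0.03, 0.09 and 0.07, none of which passed, so this course rests on the set used alone.

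Col27a1, a fibrillar chain found mostly in cartilage, took another course. It stood at 9.19 and 9.14 on the TGF-β arrays, 8.12 and 7.89 on the withdrawal arrays and 9.28 and 9.26 on the control arrays. Only the withdrawal arrays were set apart, below both other groups. The difference was -0.11 under TGF-β (95% interval -0.31 to 0.10, adjusted p = 0.412), -1.16 ± 0.083 (SE, 2.24-fold) for withdrawal against TGF-β (adjusted p = 0.000111) and -1.27 (2.41-fold) for withdrawal against control (adjusted p = 7.25e-05). Col2a1, the chain of cartilage type II collagen, read 6.09 and 6.22 under TGF-β, 5.75 and 5.71 after withdrawal and 6.05 and 5.85 in control, and passed for withdrawal against TGF-β alone, at -0.43 (adjusted p = 0.00784), which was lost under poly-A spike scaling (adjusted p = 0.223). Col11a1, Col11a2 and Col24a1 passed in no comparison.

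**Figure D2:**
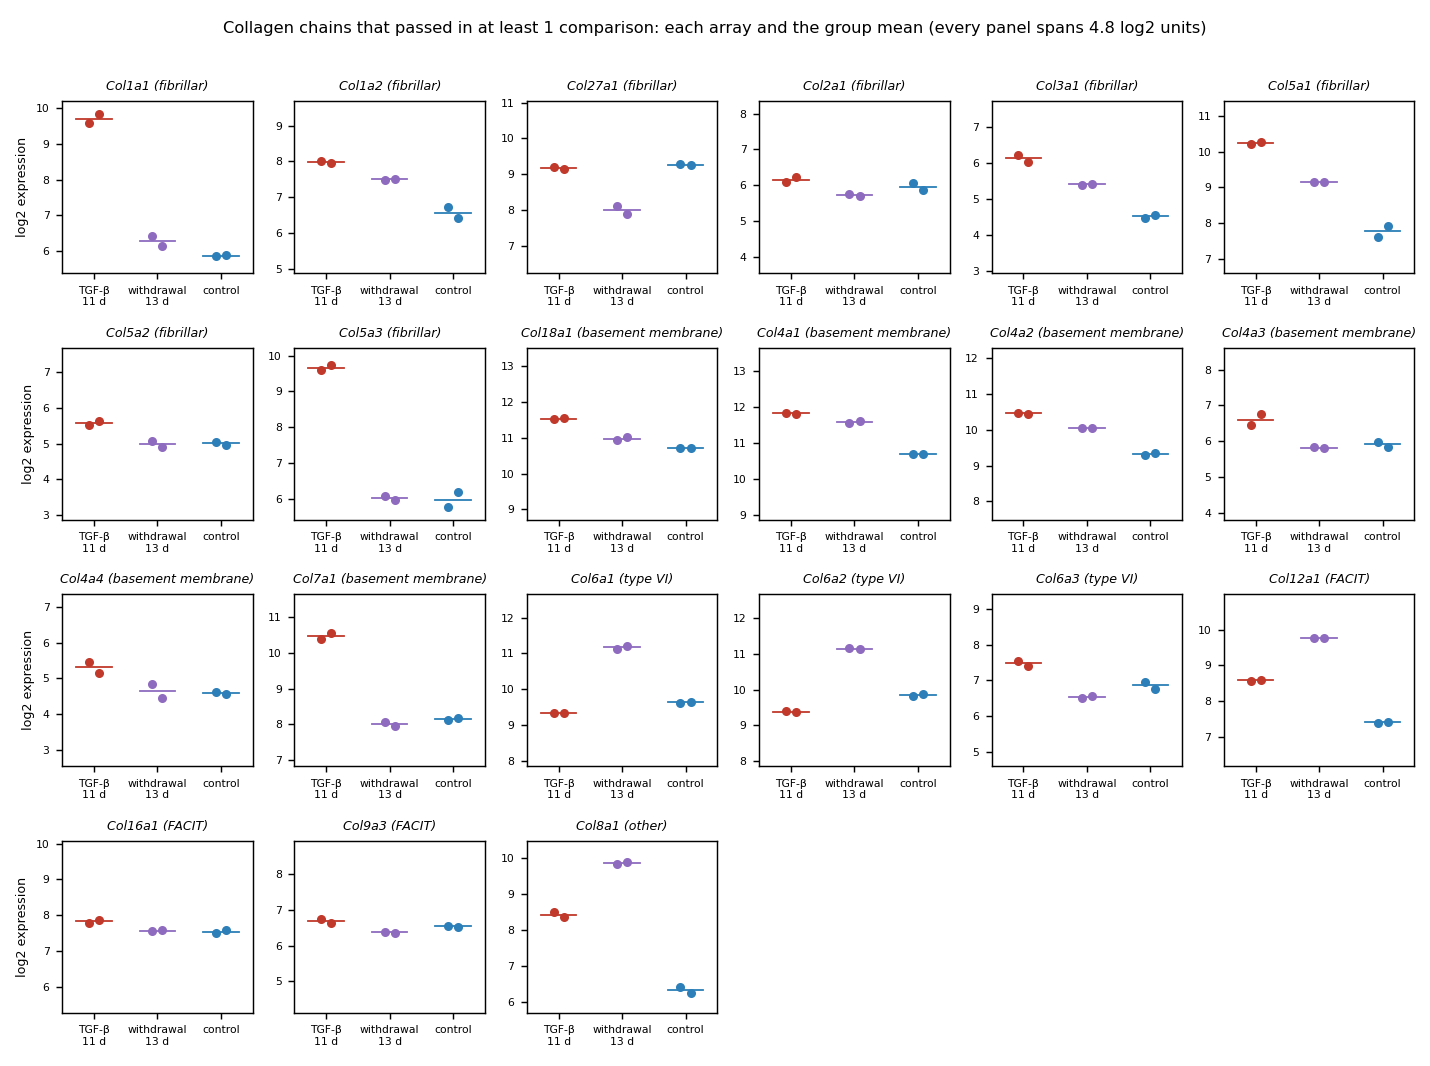
Log2 expression on each array (dots) and group means (lines) for the 21 chains that passed in at least 1 comparison, with groups on the x axis and every panel spanning the same log2 range. Col1a1, Col5a3 and Col7a1 are high on the TGF-β arrays alone, Col6a1 and Col6a2 on the withdrawal arrays alone, and Col8a1 and Col12a1 are highest on the withdrawal arrays and lowest on the control arrays.

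Type IV chains form the network of the basement membrane, and the α1 and α2 chains make its ubiquitous form. Col4a1 stood at 11.84 and 11.82 on the TGF-β arrays, 11.57 and 11.63 on the withdrawal arrays and 10.68 and 10.69 on the control arrays. Both treated groups were well above control and did not overlap with it or with each other. Col4a1 rose by 1.15 ± 0.05 (SE, 2.22-fold, adjusted p = 2.77e-05) under TGF-β, fell by 0.23 on withdrawal (1.18-fold, adjusted p = 0.0109) and stayed 0.91 above control (1.88-fold, adjusted p = 3.72e-05). The small step of withdrawal against TGF-β did not pass with the mean of probe sets (-0.05, adjusted p = 0.48), under poly-A spike scaling (-0.09, adjusted p = 0.771) or when the first TGF-β array was left out (adjusted p = 0.0559). Col4a2 stood at 10.48 and 10.45 on the TGF-β arrays, 10.05 on each withdrawal array and 9.28 and 9.34 on the control arrays. It rose by 1.15 ± 0.051 (SE, 2.22-fold, adjusted p = 3.02e-05), fell by 0.41 on withdrawal (1.33-fold, adjusted p = 0.00107) and stayed 1.66-fold above control (adjusted p = 9.14e-05), with the withdrawal step lost under poly-A spike scaling (-0.27, adjusted p = 0.252). In the probe sets used, the log2 increases of the α1 and α2 chains under TGF-β were the same to 2 decimals. The other probe set of Col4a1 gave 0.88, so the match depends on the set.

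Col4a3 and Col4a4, chains of the specialised network known from the kidney glomerulus, were dimmer. Col4a3 read 6.46 and 6.75 on the TGF-β arrays, 5.83 and 5.80 on the withdrawal arrays and 5.99 and 5.83 on the control arrays. It rose by 0.70 ± 0.11 (SE, adjusted p = 0.00431), fell by 0.79 on withdrawal (adjusted p = 0.00167) and differed from control by -0.09 after it (95% interval -0.36 to 0.17). Withdrawal and control lay close together for both chains. Col4a4 read 5.45 and 5.16 on the TGF-β arrays, 4.85 and 4.45 on the withdrawal arrays and 4.61 and 4.58 on the control arrays. It rose by 0.71 ± 0.15 (SE, adjusted p = 0.0156) and fell by 0.66 on withdrawal (adjusted p = 0.0159), with 0.06 between withdrawal and control (95% interval -0.32 to 0.44). Both Col4a4 calls were lost without single arrays, the increase without either control array or the first TGF-β array (adjusted p = 0.0684, 0.0782 and 0.0706) and the decrease without the second withdrawal or the first TGF-β array (0.0555 and 0.0722). Col4a5 and Col4a6 passed in no comparison.

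Col7a1, the chain of the anchoring fibrils that fasten the basement membrane to the stroma, stood at 10.39 and 10.55 on the TGF-β arrays, 8.06 and 7.95 on the withdrawal arrays and 8.12 and 8.18 on the control arrays. TGF-β arrays stood well above the rest, and withdrawal arrays ended just under control. Col7a1 rose by 2.32 ± 0.075 (SE, 5-fold, adjusted p = 9.19e-06), fell by 2.46 on withdrawal (5.52-fold, adjusted p = 7.21e-06) and differed from control by -0.14 after it (95% interval -0.33 to 0.04, adjusted p = 0.178). Col18a1, a heparan sulphate bearing basement membrane chain and the source of endostatin, stood at 11.52 and 11.54 on the TGF-β arrays, 10.95 and 11.02 on the withdrawal arrays and 10.71 on each control array. It rose by 0.82 ± 0.052 (SE, 1.77-fold, adjusted p = 0.000108), fell by 0.55 on withdrawal (1.46-fold, adjusted p = 0.000343) and was 0.28 above control after it (1.21-fold, adjusted p = 0.00614). Under poly-A spike scaling the decrease on withdrawal missed the threshold (adjusted p = 0.0542), and the difference from control did too (0.13, adjusted p = 0.559), while it turned to -0.10 under hybridization spike scaling. Col15a1, its close relative, passed in no comparison.

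**Figure D3:**
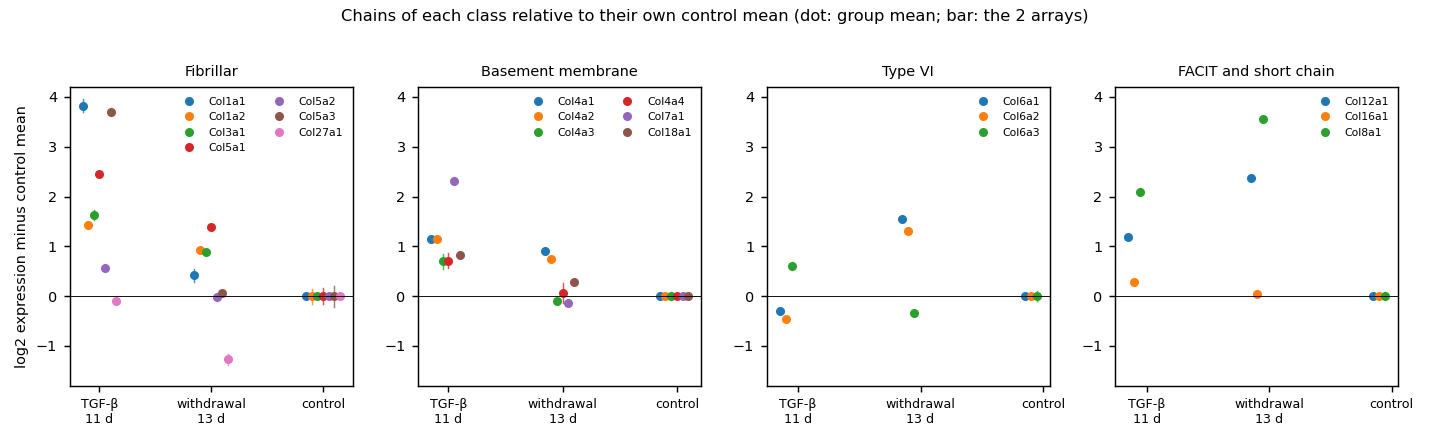
Log2 expression of the named chains minus their own control mean (dot, group mean; bar, the 2 arrays), by class, with TGF-β, withdrawal and control along the x axis. The fibrillar panel spans 3.83 for Col1a1 under TGF-β to -1.27 for Col27a1 after withdrawal, and in the type VI panel Col6a3 lies on the other side of 0 from Col6a1 and Col6a2 in both treated groups.

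Type VI collagen is assembled from α1, α2 and α3 chains, and its genes parted. Col6a1, the α1 chain, stood at 9.33 on each TGF-β array, 11.13 and 11.21 on the withdrawal arrays and 9.62 and 9.63 on the control arrays. Withdrawal arrays were far above the rest, and TGF-β arrays lay slightly below control. The difference was -0.30 ± 0.053 (SE, 1.23-fold lower, adjusted p = 0.00706) under TGF-β, 1.84 (3.58-fold, adjusted p = 6.39e-06) for withdrawal against TGF-β and 1.54 (2.92-fold, adjusted p = 8.55e-06) for withdrawal against control. Col6a2, the α2 chain, whose gene lies on chromosome 10 like Col6a1, stood at 9.39 and 9.37 on the TGF-β arrays, 11.17 and 11.12 on the withdrawal arrays and 9.83 and 9.87 on the control arrays. It took the same order of groups. The difference of Col6a2 was -0.47 ± 0.051 (SE, 1.38-fold lower, adjusted p = 0.00104), 1.76 (3.4-fold, adjusted p = 6.61e-06) and 1.30 (2.46-fold, adjusted p = 1.29e-05) in the same comparisons. Col6a3, the long α3 chain, stood at 7.56 and 7.40 on the TGF-β arrays, 6.50 and 6.57 on the withdrawal arrays and 6.97 and 6.77 on the control arrays. Its groups lay in the opposite order without overlap. Col6a3 rose by 0.61 ± 0.09 (SE, 1.53-fold, adjusted p = 0.00333), fell by 0.94 on withdrawal (1.92-fold, adjusted p = 0.000351) and was 0.33 lower than control after it (1.26-fold, adjusted p = 0.0258). The increase of Col6a3 was lost under poly-A spike scaling (0.32, adjusted p = 0.107), and its difference from control without the first control array (adjusted p = 0.12) or either withdrawal array (0.109 and 0.0674). Col6a4 and Col6a5 passed in no comparison.

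Among the FACIT chains Col12a1 had the largest differences. Col12a1, the type XII chain found along type I fibrils in tendon and other loaded tissue, stood at 8.58 and 8.61 on the TGF-β arrays, 9.78 and 9.77 on the withdrawal arrays and 7.40 and 7.42 on the control arrays. The 3 groups were separate, with withdrawal highest. It rose by 1.19 ± 0.048 (SE, 2.27-fold, adjusted p = 2.12e-05) under TGF-β, by a further 1.18 on withdrawal (2.26-fold, adjusted p = 1.62e-05) and ended 2.36 above control (5.15-fold, adjusted p = 2.93e-06). The next probe set of Col12a1 by brightness gave 0.26, which did not pass, 0.49 and 0.74. Col16a1, a FACIT chain found near fibrils and basement membranes, read 7.79 and 7.86 under TGF-β, 7.56 and 7.58 after withdrawal and 7.49 and 7.58 in control. Its differences were small, 0.29 ± 0.058 (SE, adjusted p = 0.0113) under TGF-β, -0.26 for withdrawal against TGF-β (adjusted p = 0.0136) and 0.04 for withdrawal against control (95% interval -0.11 to 0.18). The increase of Col16a1 was lost under both spike scalings (0.00 and 0.15, adjusted p = 0.981 and 0.467), without the first control array (0.0704) and without the second TGF-β array (0.0649), and the decrease under poly-A spike scaling (0.707), without the first withdrawal array (0.0551) and without the second TGF-β array (0.0738). Col9a3, a chain of the cartilage FACIT collagen type IX, read 6.75 and 6.63 under TGF-β, 6.37 and 6.36 after withdrawal and 6.56 and 6.52 in control and passed for withdrawal against TGF-β alone, at -0.32 (adjusted p = 0.0058), a call lost with the mean of probe sets (-0.06, adjusted p = 0.605) and under poly-A spike scaling (0.503).

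Col8a1, a short chain of the network-forming type VIII collagen of vessel walls and of the sheet behind the cornea, was the only one of the 8 other chains to pass. It stood at 8.49 and 8.35 on the TGF-β arrays, 9.84 and 9.90 on the withdrawal arrays and 6.40 and 6.24 on the control arrays. As with Col12a1, the groups were separate and withdrawal was highest. Col8a1 rose by 2.10 ± 0.079 (SE, 4.29-fold, adjusted p = 1.64e-05) under TGF-β, by 1.45 on withdrawal (2.73-fold, adjusted p = 4.12e-05) and ended 3.55 above control (11.7-fold, adjusted p = 3.75e-06), the highest of the 42 chains in that comparison. Its partner Col8a2 passed in no comparison, and neither did Col10a1, Col13a1, Col17a1, Col23a1, Col25a1 or Col26a1. Col17a1 is the hemidesmosome chain of epithelia.

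Of the 42 chains 21 passed in at least 1 comparison and 21 in none. Of all genes, 32.4% passed for TGF-β against control, 43.9% for withdrawal against TGF-β and 45.3% for withdrawal against control. The share of all genes that passed in at least 1 comparison was not counted, so the 21 chains need not stand out. The 21 that passed in none had array values between 2.84 and 7.67 and differences between -0.29 and 0.24. By their mean over all 6 arrays, 22 of the 42 chains lay in the dimmest 40% of all genes. No detection calls were used here, so a dim value may be background.

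The chains were measured by 82 probe sets, and 27 genes had several. All probe sets of a gene had the same call for 23 of the 27 under TGF-β, 19 for withdrawal against TGF-β and 23 for withdrawal against control. Sets that all did not pass count as the same call here. Calls differed between sets of Col1a2, Col5a2, Col8a1 and Col12a1 under TGF-β. For withdrawal against TGF-β they differed for Col1a2, Col3a1, Col4a1, Col5a2, Col9a3, Col12a1, Col14a1 and Col18a1. For withdrawal against control they differed for Col1a1, Col1a2, Col3a1 and Col12a1. In all comparisons 0 genes had probe sets called in opposite directions. Sizes differed as well. The other probe set of Col1a1 gave 2.38 under TGF-β, -2.21 for withdrawal against TGF-β and 0.17 for withdrawal against control, the last not passing (adjusted p = 0.525). For Col5a1 the other sets gave 1.05 and 2.16, -0.72 and -1.42, and 0.33 and 0.74 in the same order. Col6a2 was close in its pair, with -0.43, 1.69 and 1.26 from the other set. Col8a1 was close in one further set, at 1.81, 1.48 and 3.29, and smaller in a dimmer one, at 0.27, 1.09 and 1.36, the 0.27 not passing. The other set of Col4a1 gave 0.88, 0.13 and 1.01, and that of Col18a1 gave 0.34, 0.10 and 0.45, with 0.13 and 0.10 not passing.

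**Figure D4:**
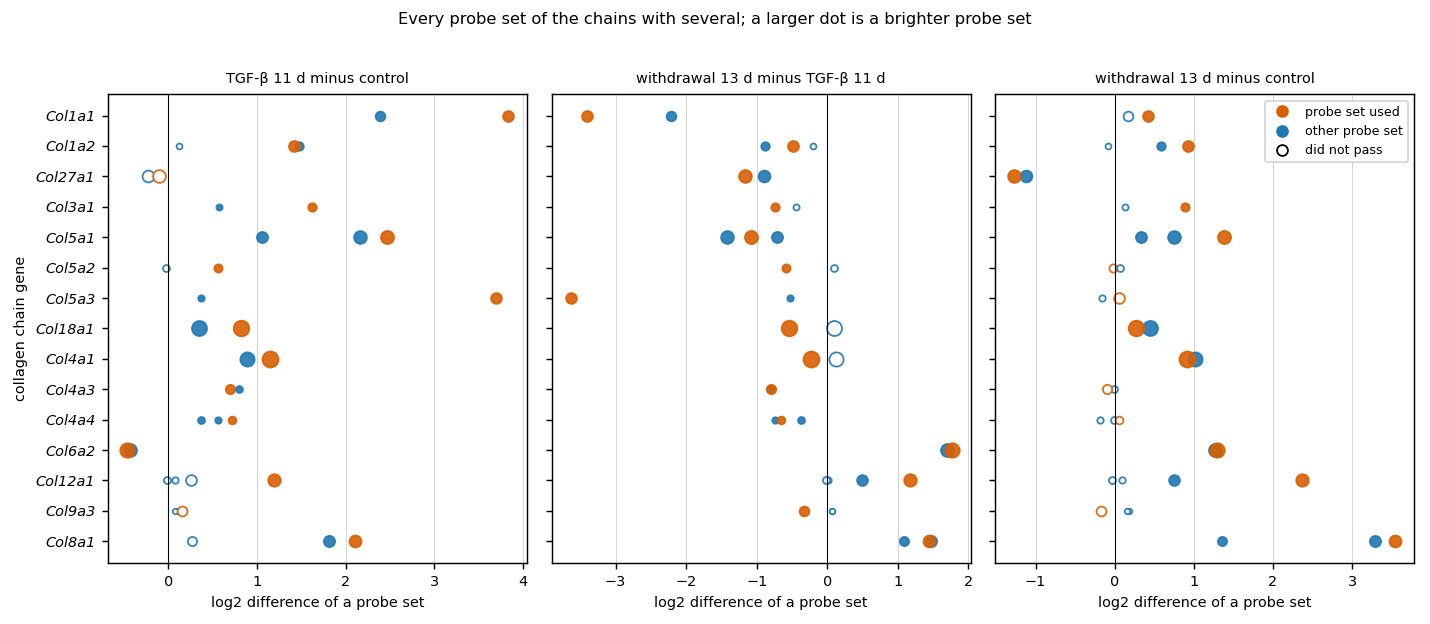
Log2 differences of every probe set of 15 chains with several, in the 3 comparisons (orange, the probe set used; blue, others; open, did not pass; larger dots are brighter on average). The sets of Col6a2 and Col4a3 lie close together, while those of Col5a3 and Col12a1 lie far apart, on the same side of 0 or near it.

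Beside the chains, genes of the collagen pathway were read from a list of 74 enzymes, chaperones, carriers, receptors and proteases, of which 63 were measured. Each was read from its brightest probe set, and the other probe sets of these genes are not described here. Under TGF-β 36 of 63 rose, 6 fell and 21 did not pass, with a median of 0.30, beside 15.0% higher, 17.5% lower and a median of -0.01 over all genes, and the split was 23 to 10 under poly-A spike scaling. For withdrawal against TGF-β 14 rose, 23 fell and 26 did not pass, with a median of -0.06, beside 21.8% higher, 22.1% lower and a median of -0.03 over all genes, and hybridization spike scaling gave 7 to 30. For withdrawal against control 31 were higher, 7 lower and 25 did not pass, with a median of 0.21, beside 21.7% higher, 23.6% lower and a median of -0.04 over all genes, and hybridization spike scaling gave 20 to 22. The counts by role below stand beside the same shares, and with 43.9% and 45.3% of all genes passing in either direction in the withdrawal comparisons, a role group in which about that share passed does not stand out.

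Of 17 genes for hydroxylation and folding 11 rose and 1 fell under TGF-β (all genes, 15.0% and 17.5%), 3 rose and 8 fell on withdrawal against TGF-β (21.8% and 22.1%), and 12 were higher and 3 lower on withdrawal against control (21.7% and 23.6%). Serpinh1, the chaperone that holds procollagen in the endoplasmic reticulum, stood at 11.81 and 11.80 on the TGF-β arrays, 11.24 and 11.25 on the withdrawal arrays and 9.96 and 9.92 on the control arrays. It rose by 1.87 (3.66-fold, adjusted p = 4.9e-06), fell by 0.56 on withdrawal and stayed 1.31 above control. Plod2, the lysyl hydroxylase of collagen telopeptides, rose by 1.98 (adjusted p = 9.38e-06), fell by 1.14 and stayed 0.83 above control, and P4ha3, a catalytic subunit of prolyl 4-hydroxylase, gave 2.10, -0.64 and 1.46. The control mean of P4ha3, 4.85, is dim and may be background. Plod1, another lysyl hydroxylase, rose at both steps, by 1.13 and 0.34. P3h2, a prolyl 3-hydroxylase that acts on type IV collagen, stood at 7.83 and 7.93 on the TGF-β arrays, 9.76 and 9.68 on the withdrawal arrays and 7.93 and 8.01 on the control arrays, with 1.84 for withdrawal against TGF-β (adjusted p = 1.03e-05) and 1.74 for withdrawal against control (adjusted p = 1.04e-05). Crtap, a partner of another prolyl 3-hydroxylase, went the other way, at -1.08 and -1.22, and neither passed under TGF-β.

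In the secretion group of 8, 5 rose and 1 fell under TGF-β, 1 rose and 4 fell on withdrawal against TGF-β, and 4 were higher and 0 lower on withdrawal against control. Creb3l1, a transcription factor of collagen secretion, gave 2.77 under TGF-β (adjusted p = 6e-05), -1.49 for withdrawal against TGF-β and 1.28 for withdrawal against control. The coat protein genes Sec24d and Sec23a, of the vesicles that carry procollagen out of the endoplasmic reticulum, rose by 2.00 and 0.85 under TGF-β and fell by 1.21 and 0.67 on withdrawal. Of 6 genes for propeptide removal 4 rose and 0 fell under TGF-β, 1 rose and 3 fell on withdrawal against TGF-β, and 2 were higher and 0 lower on withdrawal against control. Bmp1, the procollagen C-proteinase, gave 1.53, -0.82 and 0.71. Its enhancer genes parted after withdrawal. Pcolce stood at 11.13 and 11.10 on the TGF-β arrays, 12.83 and 12.82 on the withdrawal arrays and 9.95 and 9.88 on the control arrays, and gave 1.20, 1.71 and 2.91 (adjusted p = 2.75e-05, 7.34e-06 and 2.22e-06). Pcolce2 stood at 11.80 and 11.89 on the TGF-β arrays, 9.38 and 9.50 on the withdrawal arrays and 9.50 and 9.54 on the control arrays, and gave 2.32, -2.41 and -0.09, the last not passing. Tll1, a proteinase related to Bmp1, gave 2.33, -2.47 and -0.14, the last not passing. The withdrawal and control means of Tll1 were 3.30 and 3.44, dim values that may be background, so these sizes are uncertain.

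All 5 crosslinking genes rose under TGF-β (15.0% of all genes), and 1 rose and 3 fell on withdrawal against TGF-β, while 4 were higher and 0 lower on withdrawal against control. Lox, the lysyl oxidase, stood at 12.79 and 12.81 on the TGF-β arrays, 12.13 and 12.19 on the withdrawal arrays and 7.88 and 7.79 on the control arrays. On withdrawal it fell by 0.64 (adjusted p = 0.000273) and stayed 4.32 above control (20-fold, adjusted p = 2.22e-06). Its relative Loxl1 stood at 9.49 and 9.40 on the TGF-β arrays, 10.59 and 10.62 on the withdrawal arrays and 6.16 and 5.83 on the control arrays, and rose by a further 1.16 on withdrawal (adjusted p = 0.000358), to 4.61 above control (24.4-fold, adjusted p = 4.32e-06). The control mean of Loxl1 lay below the limit of the dimmest 40% of genes (6.08) and may be background. The size of the difference of Loxl1 from control is therefore uncertain. Of 9 fibril assembly genes 4 rose under TGF-β, 3 rose on withdrawal against TGF-β and 4 were higher on withdrawal against control, with 0 falling in each. Fn1, which codes for fibronectin, gave 1.65, 0.46 and 2.11, the matrix gene Ecm1 gave 1.11, 0.74 and 1.84, and the collagen-binding Sparc gave 0.80, -0.08 and 0.72, with -0.08 not passing.

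Of 9 receptor genes 1 rose and 2 fell under TGF-β, 2 rose and 3 fell on withdrawal against TGF-β, and 2 were higher and 1 lower on withdrawal against control. Itga1 and Itga2, the α subunits of collagen-binding integrins, fell by 1.32 and 0.83 under TGF-β (adjusted p = 0.00697 and 0.0017). On withdrawal against TGF-β Itga1 rose by 1.99 (adjusted p = 0.000819) and Itga2 fell by 0.64 (adjusted p = 0.00327). The TGF-β arrays of Itga1 read 5.68 and 4.96, and the withdrawal mean of Itga2 was 5.53. These values lay below the limit of the dimmest 40% of genes (6.08) and may be background. The sizes of both Itga1 differences and of the Itga2 decrease on withdrawal are therefore uncertain. Ddr1, a receptor kinase activated by collagen, gave 0.03, which did not pass, 0.89 and 0.92. In the breakdown group of 9, 6 rose and 2 fell under TGF-β, 3 rose and 2 fell on withdrawal against TGF-β, and 3 were higher and 3 lower on withdrawal against control, beside 32.4%, 43.9% and 45.3% of all genes passing in either direction. Apart from that of Mmp14, the increases under TGF-β were small, between 0.23 and 0.39. Of the 2 that fell, 1 had means of 3.30 on TGF-β arrays and 3.68 on control arrays, dim values that may be background. Mmp13, a collagenase of fibrillar collagens, stood at 3.80 and 4.29 on the TGF-β arrays, 8.26 and 8.33 on the withdrawal arrays and 7.86 and 7.84 on the control arrays. It was low on the TGF-β arrays alone, and differed by 4.25 for withdrawal against TGF-β (adjusted p = 1.16e-05) and by 0.44 for withdrawal against control (adjusted p = 0.0602). The TGF-β values are among the dim ones that may be background, so the size of the 4.25 is uncertain. Mmp14, a membrane-bound collagenase, rose at both steps, by 1.21 and 0.34.

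**Figure D5:**
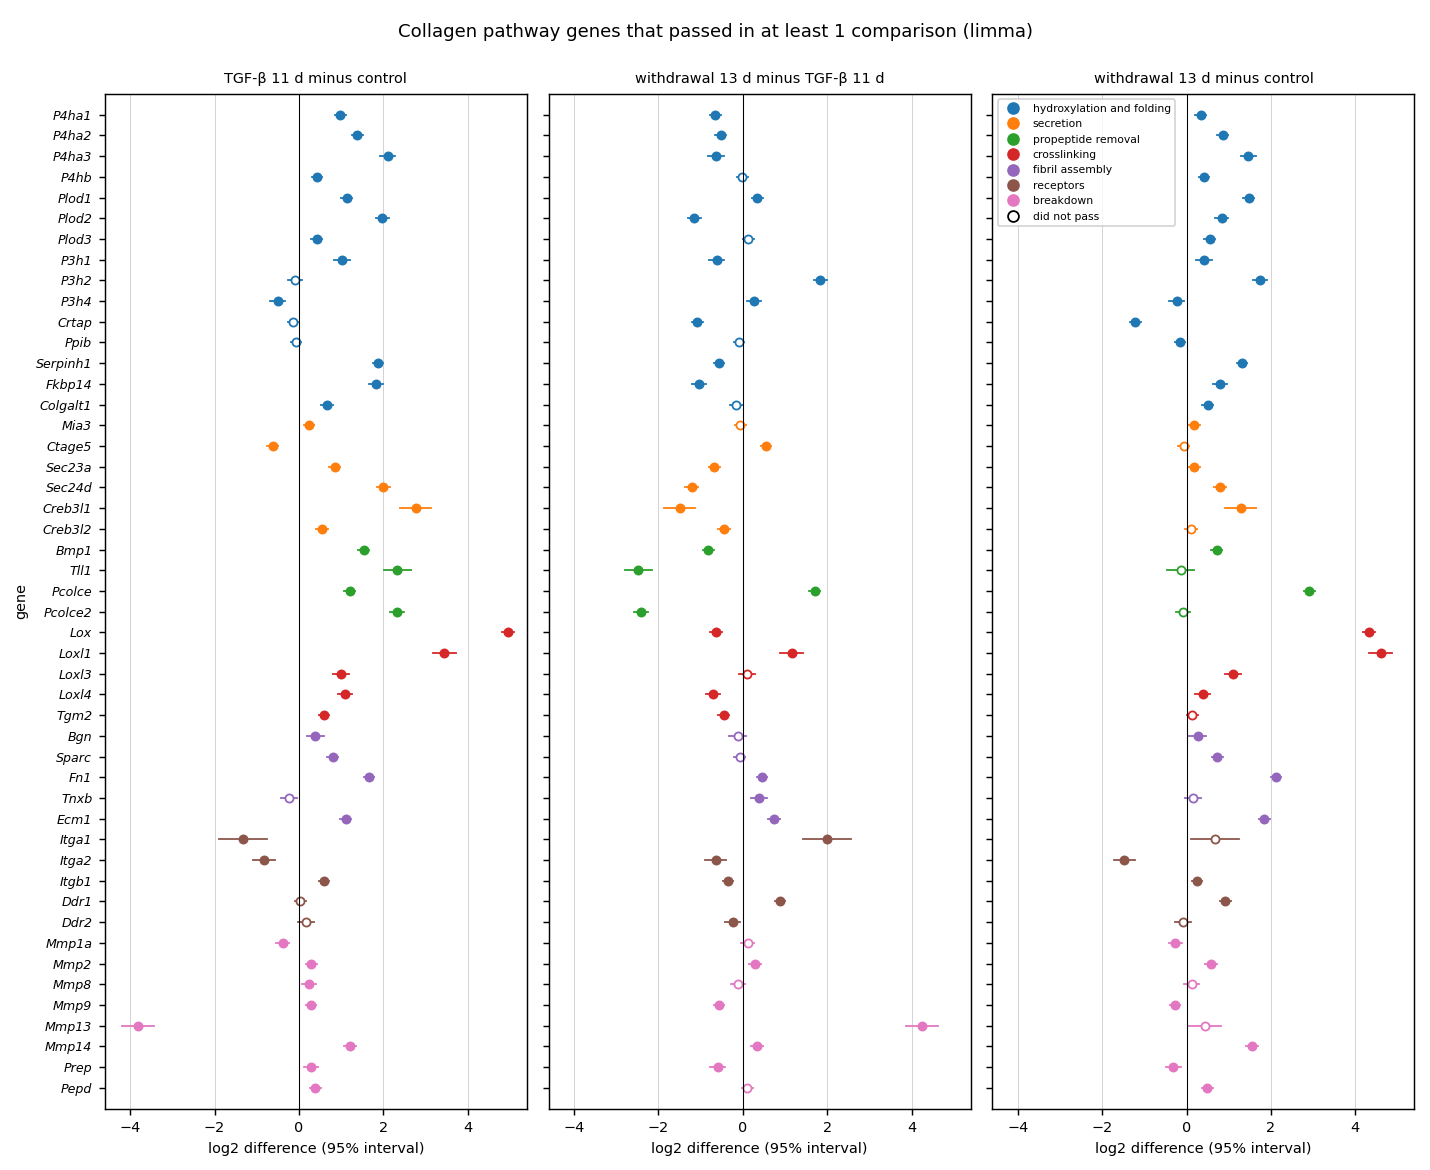
Log2 differences of the pathway genes that passed in at least 1 comparison, coloured by role (dot, limma estimate; bar, 95% interval; open dot, did not pass). Lox and Loxl1 are the rightmost dots for TGF-β against control and for withdrawal against control, and Mmp13 lies at -3.80 in the left panel and 4.25 in the middle one.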

How the data were processed

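RNA of NMuMG cells was measured on 6 1-colour Affymetrix 3′ arrays, 2 per group. Per the submitters' processing notes, the deposited log2 expression values were made with RMA, which corrects background, quantile normalises arrays and summarises probes; this sets the arrays to a common distribution, so a shift shared by all genes is removed. No detection calls, scanner intensities or software version were used here.

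Of 45101 probe sets, 64 were controls and 34945 had 1 gene symbol in the platform annotation; the rest (932 with several, 9160 with none) were left out. Names were checked in RefSeq's GRCm38.p6 table, which held 34741 of the 34945. Each of 18193 genes was represented by its brightest probe set. limma 3.58.1 (R 4.3.3) fitted 1 model per gene to all 6 arrays without covariates (3 residual and 2.857 prior degrees of freedom); tests were two-sided with Benjamini-Hochberg adjustment over all genes and a threshold of 0.05. Standard errors of log2 differences had a median of 0.0701 over all genes and 0.0795 over the chains; the number of arrays limits the precision. The smallest differences called were 0.161, 0.151 and 0.149 (TGF-β against control, then withdrawal against TGF-β, then withdrawal against control). The script was tested on simulated data. Tables and figures used pandas 2.3.3 and matplotlib 3.10.9 in Python 3.11.15.

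The members, the pathway and marker lists and the promoters shown were chosen with earlier results of these data known. Every collagen chain could be named; array values were given for up to 6 called chains per class with the largest differences, with a few smaller called ones added; of pathway genes, up to 3 called ones per role and comparison. The 15 alternatives were the replicate block, an intensity trend, leaving out dim genes, the mean of probe sets, dropping probe sets with a name ending in x, s or a, normalisation by cyclic loess, both spike scalings, a fit to the compared arrays alone and leaving out each array.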

Additional observations from a re-analysis of the deposited data

How the results depend on the processing

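Over the 15 alternatives, the differences of single chains stayed on their side of the threshold 1724 times (131 of these had the other sign and did not pass), newly passed 41 times, no longer passed 36 times and reversed 11 times. The count of chains lower under TGF-β went from 2 to 1 without probe sets ending in x, s or a, where 38 chains were measured. Of chains lower on withdrawal against TGF-β, main 17, there were 10 under poly-A spike scaling and 28 under hybridization spike scaling. Of chains lower on withdrawal against control, main 2, there were 4 without the dimmest 40% of genes, where 20 chains were measured, 28 under hybridization spike scaling, and 1 to 4 leaving out single arrays (1 without the first control array or the second withdrawal array, 4 without the second control array). The pathway counts that moved were 23 higher and 10 lower under TGF-β with poly-A spike scaling (main 36 and 6), 7 higher on withdrawal against TGF-β with hybridization spike scaling (main 14), 20 higher and 22 lower on withdrawal against control with hybridization spike scaling (main 31 and 7), and 3 to 6 lower there leaving out single arrays (3 without either control array, 4 without either withdrawal array). Over all genes, the median difference under poly-A spike scaling was -0.30 for TGF-β against control, 0.11 for withdrawal against TGF-β and -0.19 for withdrawal against control, and under hybridization spike scaling -0.15, -0.27 and -0.42. Under hybridization spike scaling the reversed results were all for withdrawal against control, namely Col11a1 at -0.35, Col24a1 at -0.36, Col5a3 at -0.32, Col18a1 at -0.10, Col4a4 at -0.32, Col6a5 at -0.36, Col16a1 at -0.34, Col13a1 at -0.37, Col17a1 at -0.31, Col23a1 at -0.36 and Col26a1 at -0.34. Of these only Col18a1 had passed in the main fit, at 0.28, and it did not pass after this scaling (limma, adjusted p = 0.515). The others had not passed in the main fit and passed after the scaling. Apart from the shift of all genes that the spike scalings make by their construction, the cause was not tested.

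The deviations of same-numbered arrays correlated at -0.00376, -0.0162 and 0.00674 between groups, so no effect shared by same-numbered arrays was seen over all genes. These values cannot show whether same-numbered samples were grown or handled together. With the replicate block the chains counted 16 higher and 2 lower under TGF-β, 4 and 17 for withdrawal against TGF-β and 10 and 3 for withdrawal against control. The pathway genes counted 35 and 6, 14 and 23, and 30 and 5.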
